A study of Callithrix jacchus with 4 samples.

Results

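The nuclear genes for subunits of the mitochondrial respiratory chain were examined in newborn marmoset forebrain. They were taken from the deposited count table as every row whose symbol fits a rule for subunits of complex I to V (NDUFA, NDUFB, NDUFC, NDUFS and NDUFV genes with a number, SDHA to SDHD, UQCR genes, CYC1, the COX4 to COX8 families and most ATP5 subunit genes). The rule gave 66 of 35205 rows and leaves out some subunits, such as NDUFAB1 and ATP5MK. A further 15 subunit genes stand in the table under a bare LOC identifier, whose number is the gene's NCBI Gene ID, and RefSeq's gene table pairs that ID with a subunit symbol. Most of the common subunits of complexes III and IV, such as COX4I1, COX5A and UQCRC1, are among these 15, so they are described beside the 66 and marked as named by Gene ID.

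The respiratory chain makes most of the ATP of a neuron. Complexes I and II take electrons from NADH and succinate, complex III passes them to cytochrome c, complex IV gives them to oxygen, and complex V, the ATP synthase, uses the proton gradient that complexes I, III and IV build. The nucleus encodes all of complex II and most subunits of the other complexes, and mitochondrial DNA encodes the rest. No row carries any of the names of mtDNA-encoded subunits that were looked for, so those subunits are not analysed here.

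The RNA-seq libraries, all of postnatal day 5, were made from the brain of common marmosets (Callithrix jacchus). FMR1 mutants, obtained by CRISPR/Cas9 editing, gave 2 libraries and wild-type marmosets gave 2. FMR1 encodes FMRP, an RNA-binding protein whose loss causes fragile X syndrome. The design text gives forebrain with cortex, striatum and hippocampus, while each library's label gives only brain. The sources used here give no allele, zygosity, sex or litter, and do not say whether every library is from a different animal. The p-values therefore rest on the spread among these libraries, which may be technical.

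Total counts were 13153036 and 13455702 in FMR1 mutant replicates 1 and 2, and 13256200 and 12331639 in wild-type replicates 1 and 2. FMR1 itself was counted 1062 and 1603 times in the mutant libraries and 1144 and 966 times in the wild-type libraries, which overlap, so its RNA does not check the genotype labels. In tissue markers, 2 libraries stood apart. Mutant replicate 1 had 1244 counts of TTR, a transport protein made by choroid plexus, against 87 in mutant replicate 2 and 8 and 89 in the wild-type libraries. TCF7L2, a thalamic transcription factor, was counted 118 and 121 times in the mutant libraries, 1272 times in wild-type replicate 1 and 139 times in wild-type replicate 2. A list of 10 myelin genes summed to 1367 and 1316 CPM in the mutant libraries and 3595 and 3525.5 CPM in the wild-type libraries (CPM are counts per 1000000 library counts, scaled by TMM). All 10 fell by edgeR at an adjusted p under 0.05, where 1.57% of all genes tested were called lower. The part of the myelin difference in the subunit values was not tested. Neuronal markers were counted in all libraries, and a list of 10 of them took between 0.915% and 0.952% of counts. Of these 10, edgeR called 0 higher and 2 lower, where 1.57% of all genes tested were called lower. The 2 were NEFL (log2 fold change -0.49, adjusted p = 0.0151) and GAD2 (-0.46, adjusted p = 0.0352). In the list 7 genes lay below zero and 3 above, with STMN2, the most counted, at 0.31 (adjusted p = 0.141). In bulk tissue, fewer cells of a type and less RNA per cell cannot be told apart.

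The comparison asked whether respiratory chain subunit transcripts differ between FMR1 mutant and wild-type forebrain, and no subunit passed the test. Of the 66 genes, 61 had enough counts to be tested. With edgeR's quasi-likelihood test, at a Benjamini-Hochberg adjusted p under 0.05 over all genes tested, 0 were higher and 0 were lower in the mutant libraries, where 2.23% of the 16956 genes tested were called (0.661% higher and 1.57% lower). At an unadjusted p under 0.05 there were also 0 of 61, against 13.4% of all genes tested. DESeq2 called 0 of them (1.38% of the genes it gave an adjusted p), and limma-voom called 0 (2.05%). The 15 genes named by Gene ID gave 0 calls by all 3 tools as well. The count of subunits called was also 0 in each other fit. Of all genes, those fits called 2.2% with RLE scaling, 2.18% with upper quartile scaling, 2.4% with total counts, 2.19% with robust = FALSE, 2.43% without a low-count filter and 2.55% at a mean of at least 1 CPM. They called 2.91% with the replicate number as a block and 3.68% at an adjusted p under 0.1. With 1 library left out they called 0.961% without mutant replicate 1, 1.3% without mutant replicate 2, 2.09% without wild-type replicate 1 and 3.31% without wild-type replicate 2.

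The size of the differences was small for nearly all of them. The median log2 fold change was -0.04 over the 61 genes, with 22 above and 39 below zero, and -0.04 over the 15 genes named by Gene ID, against -0.0040 over all genes tested. The 95% interval of the log2 fold change lay within -0.5 to 0.5 for 70 of the 76 subunits tested. The other 6 were NDUFB6, NDUFS4, UQCR10, COX7A1, COX6B2 and NDUFA4L2. The mutant and wild-type libraries did not overlap in 9 of the 61 genes (14.8%), with 1 higher and 8 lower in the mutant, where 43.1% of all genes tested did not overlap. All subunits together took 0.804% and 0.682% of counts in mutant replicates 1 and 2, and 0.767% and 0.747% in wild-type replicates 1 and 2, so the mutant libraries lay on either side of the wild-type ones.

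**Figure D1:**
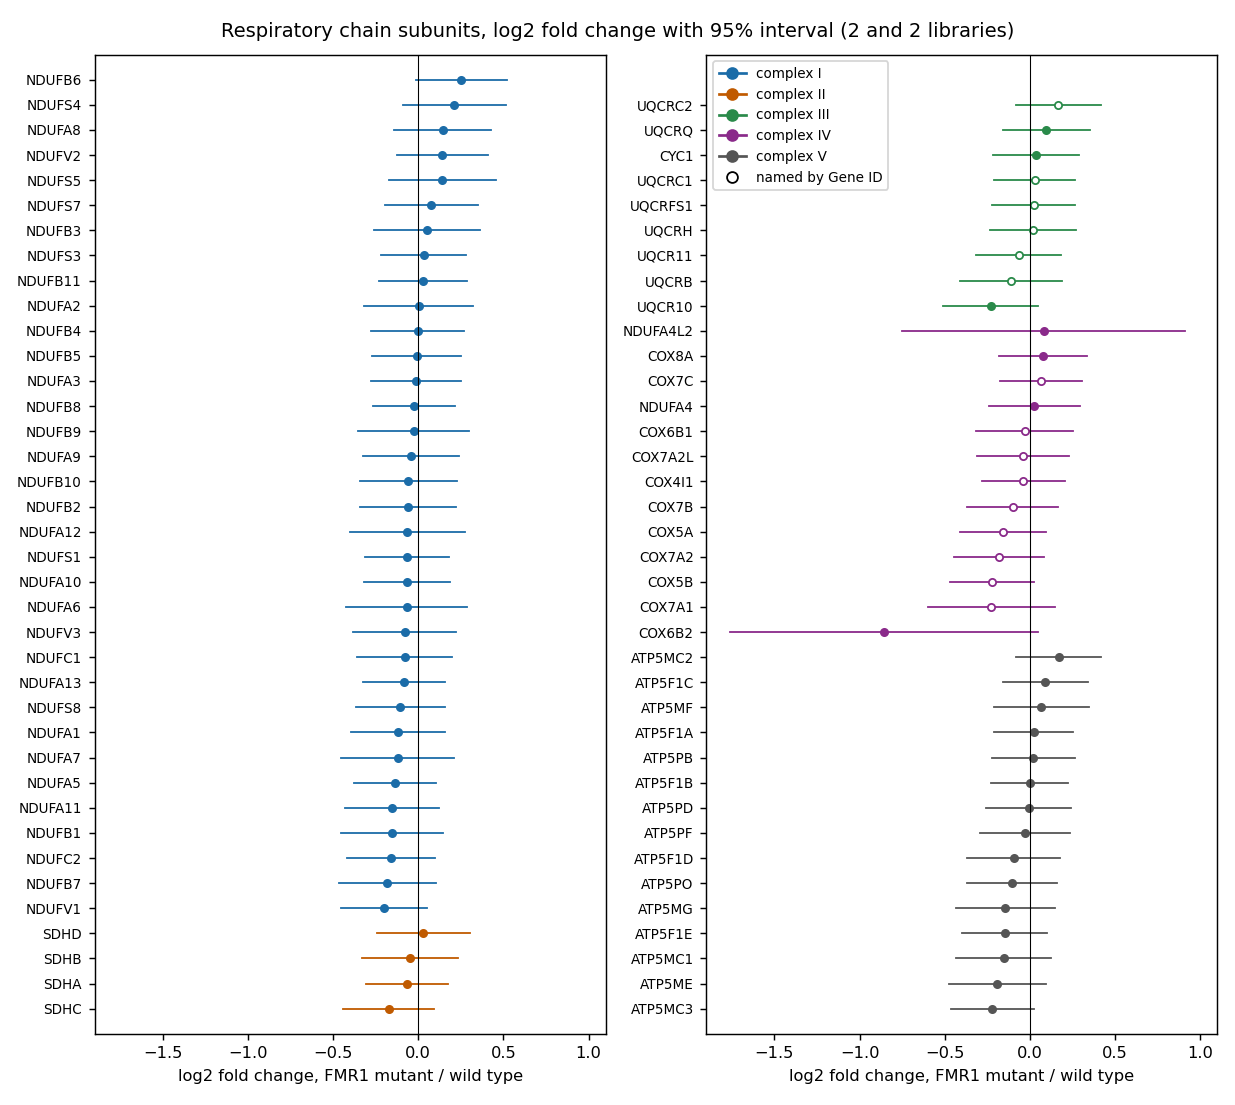
Log2 fold change of 75 of the 76 tested subunits (FMR1 mutant over wild type, 2 libraries each; points) with its 95% interval (lines), coloured by complex and ordered by size within each complex. Filled points are genes found by symbol and open points genes named by Gene ID. All intervals shown include zero, and the widest belong to the rarely counted COX6B2 and NDUFA4L2.

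Complex I, NADH dehydrogenase, is the largest of the chain, and 35 of its 36 genes found by symbol were tested. Their median log2 fold change was -0.06, with 11 genes above and 24 below zero. The 7 core subunits, which carry the flavin and iron-sulphur centres from NADH to ubiquinone, had a median of 0.03 and a range from -0.20 to 0.14. NDUFV1, which binds NADH, was at the low end of that range. It stood at 107 and 95.9 CPM in mutant replicates 1 and 2, and at 107 and 126 CPM in wild-type replicates 1 and 2. The groups did not overlap, though the replicate 1 values of mutant and wild type were nearly level, and the log2 fold change was -0.20 (SE 0.12, 95% interval -0.45 to 0.05, adjusted p = 0.517). NDUFV2, its iron-sulphur partner, had a log2 fold change of 0.14 (adjusted p = 0.712), and its groups overlapped. NDUFS1, NDUFS3, NDUFS7 and NDUFS8 lay between -0.10 and 0.08 on the same scale.

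The accessory subunits of complex I surround this core and are needed for its assembly and stability. The 11 NDUFB subunits of the far membrane arm had a median log2 fold change of -0.02, and the 17 other accessory subunits tested a median of -0.07. NDUFB6 had the smallest unadjusted p of the complex. It was 83.1 and 70.0 CPM in the mutant libraries and 62.3 and 66.2 CPM in the wild-type libraries. Both mutant values were above both wild-type values, but the log2 fold change of 0.25 (SE 0.13) did not pass (adjusted p = 0.406), and it ranged from 0.12 to 0.37 when any 1 library was left out. NDUFS4, an accessory subunit whose loss causes Leigh syndrome in humans, was 46.2 and 36.7 CPM in the mutant libraries and 38.2 and 33.2 CPM in the wild-type libraries (log2 fold change 0.21, SE 0.15, adjusted p = 0.592). NDUFB7 was at -0.18 (adjusted p = 0.632) and NDUFB8 at -0.02 (adjusted p = 0.967). NDUFA5 had 137 and 126 CPM in the mutant libraries against 143 and 147 CPM in the wild-type libraries, without overlap but with a log2 fold change of only -0.14 (adjusted p = 0.678). NDUFS6, an accessory subunit of the NADH-oxidising module, had too few counts to test, with 9 and 9 in the mutant libraries and 6 and 10 in the wild-type libraries. Whether its reads were assigned to another row of the table could not be checked, so these counts may not give its level.

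Complex II, succinate dehydrogenase, also works in the tricarboxylic acid cycle. Its 4 genes had a median log2 fold change of -0.06. SDHA, the flavoprotein that oxidises succinate, averaged 155 ± 17.3 CPM in mutant and 162 ± 5.04 CPM in wild-type libraries (SD, n = 2 each; log2 fold change -0.06, adjusted p = 0.887). SDHB, the iron-sulphur subunit, was at -0.05 (adjusted p = 0.940). Of the membrane anchors, SDHC was at -0.17 (74.8 and 62.9 CPM in the mutant libraries, 81.5 and 73.6 CPM in the wild-type libraries, adjusted p = 0.629). The other anchor, SDHD, was at 0.03 (adjusted p = 0.966). The groups overlapped for all 4.

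Complex III, the cytochrome bc1 complex, was represented by 3 genes found by symbol and 6 named by Gene ID. The median log2 fold change was 0.04 over the 3 and 0.02 over all 9. Of the catalytic subunits, cytochrome c1 (CYC1) was at 0.04 and the Rieske iron-sulphur protein (UQCRFS1, named by Gene ID) was at 0.02. UQCRC2, a core protein named by Gene ID, was 110 and 97.5 CPM in the mutant libraries and 90.2 and 94.9 CPM in the wild-type libraries. Its groups did not overlap, yet the log2 fold change of 0.16 (SE 0.12) did not pass (adjusted p = 0.620), and its partner UQCRC1 was at 0.03. The small subunit UQCR10 had the lowest fold change of the complex, with 65.3 and 50.7 CPM in the mutant libraries and 67.1 and 69.0 CPM in the wild-type libraries (log2 fold change -0.23, SE 0.14, adjusted p = 0.488). Dropping mutant replicate 1 gave -0.43, and dropping mutant replicate 2 gave -0.06. UQCRQ (0.10), UQCRH (0.02), UQCR11 (-0.07) and UQCRB (-0.11) lay between these.

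Complex IV, cytochrome c oxidase, is the one complex with many tissue-specific subunit isoforms, so its genes fall into ubiquitous and restricted forms. NDUFA4, first named for complex I and later placed in complex IV, is counted here with its paralog NDUFA4L2. Of the 8 genes found by symbol, 4 were tested (median log2 fold change 0.05), and with those named by Gene ID 13 were tested (median -0.04). COX6A1 and COX6C, which are also ubiquitous subunits, were not found by symbol or through Gene ID, so they are not analysed here. The 9 ubiquitous subunits that were found ranged from -0.22 to 0.08. COX4I1, which with COX4I2 forms the pair of isoforms that set the enzyme's response to ATP, averaged 250 ± 39.8 CPM in mutant and 257 ± 0.573 CPM in wild-type libraries (SD, n = 2 each; log2 fold change -0.04, adjusted p = 0.938). COX5B was the lowest of the 9, at 119 and 104 CPM in the mutant libraries and 131 and 129 CPM in the wild-type libraries. Both mutant values were below both wild-type values, but the log2 fold change of -0.22 (SE 0.12) did not pass (adjusted p = 0.434). COX7A2 (-0.18, adjusted p = 0.600) and COX5A (-0.16, adjusted p = 0.638) followed, and COX8A (0.08, adjusted p = 0.865) was the highest. COX7A2L, which links complexes III and IV, was at -0.04.

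Most restricted isoforms of complex IV had few counts or none. COX6A2, the striated muscle form of subunit VIa that in mice is also found in parvalbumin interneurons, had 0 counts in all 4 libraries. Whether its reads were assigned to another row could not be checked. PVALB itself had 31 and 22 counts in the mutant libraries and 67 and 80 in the wild-type libraries. A list of 7 interneuron markers held PVALB, KCNC1, KCNC2, ERBB4, TAC1, LHX6 and SST, not all of them particular to parvalbumin cells. Of these 7, edgeR called 1 lower, PVALB, and 0 higher, where 1.57% of all genes tested were called lower. Their median log2 fold change was -0.26, with 6 below zero and 1, LHX6, above it (0.10). After PVALB (-1.53) the lowest was TAC1 at -0.36, and SST was at -0.01. COX4I2 had 4 and 4 counts in the mutant libraries and 6 and 2 in the wild-type libraries. The testis forms COX7B2 and COX8C had at most 3 counts in any library. COX6B2, the testis form of subunit VIb, was counted 19 and 17 times in the mutant libraries and 33 and 30 times in the wild-type libraries. It was the subunit with the smallest adjusted p of all, and still did not pass (log2 fold change -0.86, SE 0.44, 95% interval -1.76 to 0.04, adjusted p = 0.405). NDUFA4L2, a form raised by low oxygen, had 38 and 36 counts in the mutant libraries and 50 and 18 in the wild-type libraries, so its wild-type values lay on either side of the mutant ones (log2 fold change 0.08, adjusted p = 0.967). COX7A1, the muscle and heart form of subunit VIIa, had 20.5 and 14.8 CPM in the mutant libraries and 20.5 and 20.8 CPM in the wild-type libraries (log2 fold change -0.23, adjusted p = 0.652). The mutant values did not overlap the wild-type ones, but mutant replicate 1 was nearly level with wild-type replicate 1.

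Markers of some cells that could supply these restricted forms were summed in each library, and no testis markers were among them. The 9 striated muscle markers summed to 12.7 and 11.1 CPM in the mutant libraries and 9.58 and 13.03 CPM in the wild-type libraries, with MYL1 at 0 in every library. Only 3 of these 9 had enough counts to test. The 10 markers of pericytes and vascular smooth muscle, a cell type in which COX4I2 and NDUFA4L2 are known, summed to 187 and 190.5 CPM in the mutant libraries and 221 and 209 CPM in the wild-type libraries. None of these 10 passed by edgeR, against 2.23% of all genes tested. The part of these cells in the isoform counts was not tested.

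Complex V makes ATP, and all 15 of its genes found by symbol were tested, with a median log2 fold change of -0.03 (5 above and 10 below zero). ATP5F1B, the catalytic beta subunit, averaged 619 ± 34.98 CPM in mutant and 620.4 ± 31.55 CPM in wild-type libraries (SD, n = 2 each). Its log2 fold change was -0.0024 (SE 0.11, 95% interval -0.23 to 0.22). ATP5F1A, the alpha subunit, was at 0.02, the gamma subunit ATP5F1C at 0.09 and the epsilon subunit ATP5F1E at -0.15 (adjusted p = 0.663). The 4 genes of the peripheral stalk, which holds the head still against the rotor, lay between -0.10 and 0.02. Of the membrane accessory subunits, ATP5ME was the lowest, with 40.9 and 36.3 CPM in the mutant libraries and 45.7 and 42.4 CPM in the wild-type libraries (-0.19, adjusted p = 0.614).

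The c-ring of complex V is built from a single mature protein that 3 genes encode, ATP5MC1, ATP5MC2 and ATP5MC3, which differ in the import sequence that is cut off. ATP5MC3 was 112 and 110 CPM in the mutant libraries and 136 and 123 CPM in the wild-type libraries (log2 fold change -0.22, SE 0.12, adjusted p = 0.434). ATP5MC2 was 128 and 109 CPM in the mutant libraries and 109 and 101 CPM in the wild-type libraries (0.17, SE 0.12, adjusted p = 0.613). Neither passed, but they lay on opposite sides of zero, while ATP5MC1 was at -0.16 (adjusted p = 0.691). The relative use of the 3 genes was therefore compared within each library.

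ATP5MC2 made up 41.4% (95% Wilson interval 39.9 to 43.0) and 39.9% (38.3 to 41.5) of the summed counts of these genes in mutant replicates 1 and 2. In wild-type replicates 1 and 2 it made up 35.04% (33.6 to 36.5) and 34.5% (32.9 to 36.0). These intervals cover counting error only, and those of the mutant libraries lay above those of the wild-type libraries. The mean share was 40.7 ± 1.08% in mutant and 34.8 ± 0.404% in wild-type libraries (SD, n = 2 each). ATP5MC3 made up 36.1% and 40.6% in the mutant libraries and 43.7% and 41.8% in the wild-type libraries, a smaller gap next to the spread between the mutant replicates. The ratio of ATP5MC2 to ATP5MC3 counts was 1.15 and 0.983 in the mutant libraries and 0.802 and 0.825 in the wild-type libraries. With 2 libraries in each group, the exact two-sided permutation test cannot go below p = 0.33, which is the value the ATP5MC2 share, the ATP5MC3 share and the ratio each gave. The coding sequences of these genes are alike, and how the authors counted reads that fit more than 1 gene or a processed copy is unknown here, so the split between them is uncertain.

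**Figure D2:**
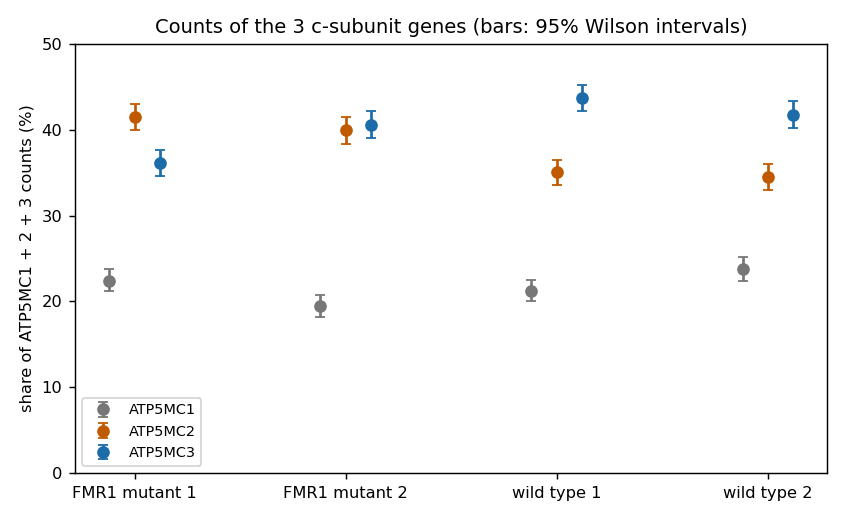
Share of the summed ATP5MC1, ATP5MC2 and ATP5MC3 counts held by each gene (percent, vertical axis) in the 2 FMR1 mutant and the 2 wild-type libraries, with 95% Wilson intervals for counting error. ATP5MC2 is at 41.4% and 39.9% in the mutant libraries and at 35.04% and 34.5% in the wild-type libraries.

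Paralog shares were computed in the same way for 7 families with 15 genes. The groups did not overlap in share for 4 of the 15 genes, in 2 families, ATP5MC and COX6B. Shares within a family are tied to each other, so these 4 genes are not separate observations. In CPM, a different measure, the groups did not overlap in 43.1% of all genes tested. No such share over all genes is available for paralog shares, so the number of splits is not read as a result. COX6B2 made up 1.15% and 1.42% of COX6B1 plus COX6B2 counts in the mutant libraries and 2.21% and 2.24% in the wild-type libraries, and the Wilson intervals of the mutant libraries (0.737 to 1.79 and 0.888 to 2.26) overlapped those of the wild-type libraries (1.58 to 3.08 and 1.57 to 3.18). COX7A1 made up 21.6% and 18.8% of its pair in the mutant libraries and 19.9% and 21.9% in the wild-type libraries, which overlap. COX4I1 made up at least 99.8% of its pair in every library.

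A larger difference among these genes lay between the mutant libraries themselves. Of the 76 subunits tested, 75 had a higher CPM in mutant replicate 1 than in mutant replicate 2, with a median log2 ratio of 0.24, where 49.99% of all genes tested did (median 6.8e-06). UQCRB was the exception (-0.07). Between wild-type replicates 1 and 2 the median was 0.03, with 47 of 76 higher in replicate 1. The gap between the mutant libraries was larger than the fitted change between genotypes in 66 of 76 subunits (86.8%), against 52.5% of all genes tested. Mutant replicate 1 was the highest and mutant replicate 2 the lowest of the 4 libraries for 35 subunits (46.1%), against 6.55% of all genes tested. The same 75 to 1 split held with RLE, upper quartile and total-count scaling (medians 0.24, 0.24 and 0.23). These subunits share their libraries, so their number is not a number of independent observations, and no test of a gap between 2 libraries is given.

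All complexes showed this gap. The median log2 ratio of mutant replicate 1 to mutant replicate 2 was 0.25 for complex I, 0.20 for complex II, 0.22 for complex III, 0.22 for complex IV and 0.24 for complex V, genes named by Gene ID included. Within complex I it was 0.16 for the core subunits, 0.30 for the NDUFB subunits and 0.31 for the other accessory subunits. The largest was that of NDUFA12, an accessory subunit, which was counted 646 and 440 times in mutant replicates 1 and 2 and 598 and 498 times in wild-type replicates 1 and 2. COX6B1 (0.51) and NDUFS5 (0.51) came next, while NDUFS1 (0.03) and ATP5MC3 (0.02) were nearly level.

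**Figure D3:**
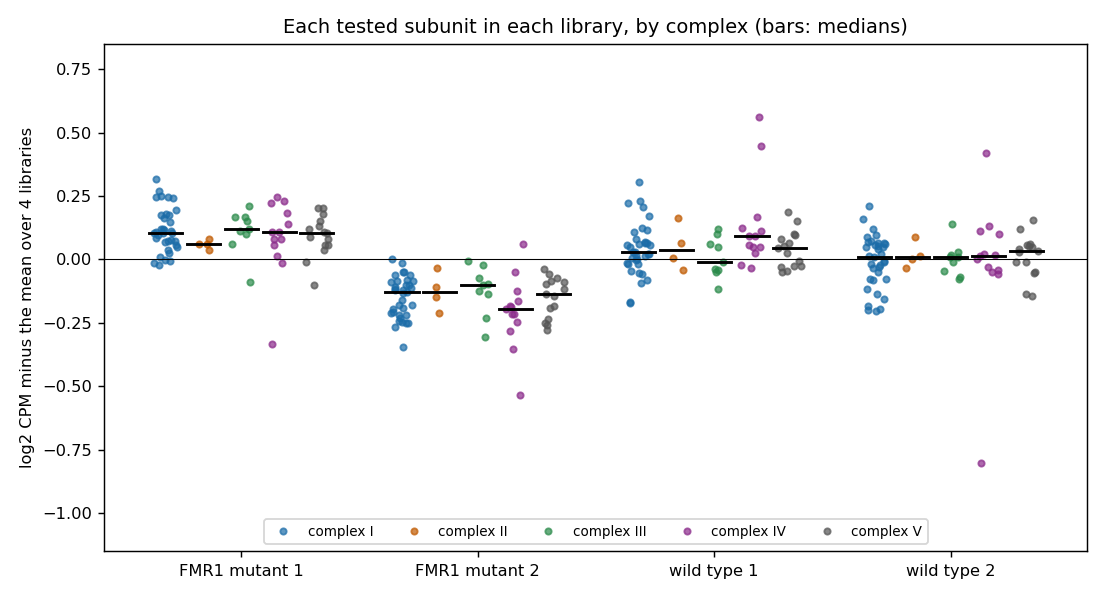
Log2 CPM of each of the 76 tested subunits in each library, as the difference from that gene's mean over the 4 libraries (vertical axis), coloured by complex, with the median of each complex as a bar. The points of FMR1 mutant replicate 1 lie mostly above zero and those of FMR1 mutant replicate 2 mostly below it. For 35 of the 76 subunits, FMR1 mutant replicate 1 was the highest and FMR1 mutant replicate 2 the lowest of the 4 libraries.

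The direction of the genotype difference followed the mutant library that was kept. Without mutant replicate 1, 70 of the 76 subunits were below zero (median log2 fold change -0.15), and without mutant replicate 2, 57 were above zero (median 0.09). No subunit passed edgeR's adjusted threshold in either fit. At an unadjusted p under 0.05 there were 12 of 76 (15.8%) without mutant replicate 1, where 9.32% of all genes tested had one, and 6 of 76 (7.89%) without mutant replicate 2, where 12.4% of all genes did.

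Marker lists of other cell types differed between the mutant libraries as well. The 6 choroid plexus markers summed to 123 CPM in mutant replicate 1 and 22.8 CPM in mutant replicate 2, and to 25.9 and 29.3 CPM in the wild-type libraries, with 5 of 6 higher in mutant replicate 1 than in mutant replicate 2. The red blood cell markers with a row (5) summed to 123 CPM in mutant replicate 1 and 48.0 CPM in mutant replicate 2, and to 42.5 CPM in each wild-type library, nearly all of it HBB. The 8 microglial markers were all higher in mutant replicate 1 than in mutant replicate 2, with sums of 129 and 87.5 CPM, against 164 and 173 CPM in the wild-type libraries. Between genotypes, edgeR called 3 of these 8 lower and 0 higher, where 1.57% of all genes tested were called lower. The 10 neuronal markers summed to 9561.5 and 9484 CPM in the mutant libraries and 9431 and 9189 CPM in the wild-type libraries. Other lists went the opposite way, with 2 of 8 astrocyte markers (median log2 ratio -0.14), 2 of 7 endothelial markers (-0.07) and 3 of 10 pericyte and vascular smooth muscle markers (-0.03) higher in mutant replicate 1 than in mutant replicate 2. The part of these cell types in the gap was not tested.

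Other genes of energy metabolism and of the chain's upkeep were set beside the subunits. Assembly factors are the proteins that build complexes I to V without staying in them. None of the 56 tested passed by edgeR, against 2.23% of all genes tested. At an unadjusted p under 0.05 there were also 0, against 13.4% of all genes tested. The median log2 fold change of the assembly factors was 0.04. Those with the smallest unadjusted p were DMAC1 (0.41, adjusted p = 0.379) and NDUFAF7 (-0.57, adjusted p = 0.397) for complex I, and COX20 (0.26, adjusted p = 0.378) and PET100 (-0.44, adjusted p = 0.384) for complex IV. For the other complexes they were SDHAF3 (0.24), SDHAF1 (0.14), TTC19 (0.10), BCS1L (0.11), ATPAF2 (0.22) and ATPAF1 (-0.19). The median log2 ratio of mutant replicate 1 to mutant replicate 2 was 0.07 here, with 39 of 56 higher in replicate 1. By the same measure, the carriers and subunits outside the symbol rule had a median of 0.21 (18 of 22 higher), glycolysis 0.18 (16 of 17), the tricarboxylic acid cycle 0.05 (14 of 22) and the regulators -0.05 (9 of 21), against 0.24 for the 76 subunits.

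Among 22 carriers and subunits outside the symbol rule, 0 passed by edgeR, against 2.23% of all genes tested. Of the 22, 4 had an unadjusted p under 0.05, as 13.4% of all genes tested did. COQ6 (0.48, adjusted p = 0.173) and COQ8B (0.39, adjusted p = 0.186), which act in the synthesis of ubiquinone, had the smallest. CYCS, the cytochrome c that carries electrons from complex III to complex IV, was counted 1209 and 1225 times in the mutant libraries and 1474 and 1283 times in the wild-type libraries (-0.24, adjusted p = 0.401). Among 21 regulators of mitochondrial biogenesis and mitochondrial DNA, 0 passed by edgeR, next to the same 2.23% of all genes. Of the 21, 3 had an unadjusted p under 0.05, next to the same 13.4% of all genes. POLG, the mitochondrial DNA polymerase, was counted 552 and 629 times in the mutant libraries and 807 and 696 times in the wild-type libraries (-0.40, adjusted p = 0.122). The coactivator PPARGC1B was at -0.48 (adjusted p = 0.252). NRF1, a transcription factor of many subunit genes, was at 0.23 (adjusted p = 0.594), and TFAM, which packs mitochondrial DNA, at 0.05.

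The tricarboxylic acid cycle list, which feeds the chain with NADH, had 2 of 22 genes lower and 0 higher by edgeR, where 1.57% of all genes tested were called lower and 0.661% higher. OGDHL, a brain-rich form of the oxoglutarate dehydrogenase subunit, fell to 174 and 236 counts in the mutant libraries, against 338 and 380 in the wild-type libraries (log2 fold change -0.87, SE 0.18, adjusted p = 0.00369). Leaving out mutant replicate 1 ended this call (adjusted p = 0.125). Pyruvate carboxylase (PC), which refills the cycle and in brain is found mainly in astrocytes, fell to 519 and 455 counts, against 701 and 646 in the wild-type libraries (-0.52, SE 0.14, adjusted p = 0.0359). Its call was lost whichever library was left out (adjusted p = 0.0519 to 0.271) and with DESeq2 (adjusted p = 0.104). The 8 astrocyte markers summed to 3538 and 3888 CPM in the mutant libraries and 5029 and 4867 CPM in the wild-type libraries. Of these 8, edgeR called 2 lower and 0 higher, where 1.57% of all genes tested were called lower. The part of astrocytes in the change of PC was not tested. The ubiquitous OGDH was at 0.07 and citrate synthase (CS) at -0.03. In glycolysis, 0 of 17 genes passed by edgeR, against 2.23% of all genes tested, and 3 had an unadjusted p under 0.05, against 13.4%. Of the 17, 14 lay below zero (median -0.13), with PGAM1 at -0.37 (adjusted p = 0.0984) and PFKP at -0.31 (adjusted p = 0.313).

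Cytosolic ribosomal protein genes were set beside the subunits as another large group of nuclear genes. Of 75 tested, 10 rose and 1 fell by edgeR, where 0.661% of all genes tested were called higher and 1.57% lower, and 74 lay above zero (median log2 fold change 0.33, against -0.04 for the 76 subunits). The mutant and wild-type libraries did not overlap in 62 of the 75 (82.7%), against 14 of the 76 subunits (18.4%) and 43.1% of all genes tested. RPL4 (0.58, adjusted p = 0.00258) and RPL13A (0.54, adjusted p = 0.00576) rose, and RPL34 (-0.48, adjusted p = 0.0334) fell. Of the 75, those that passed numbered 1 when mutant replicate 1 was dropped, 29 when mutant replicate 2 was dropped, 18 when wild-type replicate 1 was dropped and 2 when wild-type replicate 2 was dropped. Between mutant replicates 1 and 2, 74 of 75 ribosomal genes were higher in replicate 1, with a median log2 ratio of 0.31. Unlike the subunits, they also differed between wild-type replicates 1 and 2, with 70 of 75 higher in replicate 1 (median 0.18, against 0.03 for the subunits). Mutant replicate 1 was the highest and mutant replicate 2 the lowest library for 1 of the 75, against 35 of the 76 subunits.

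**Figure D4:**
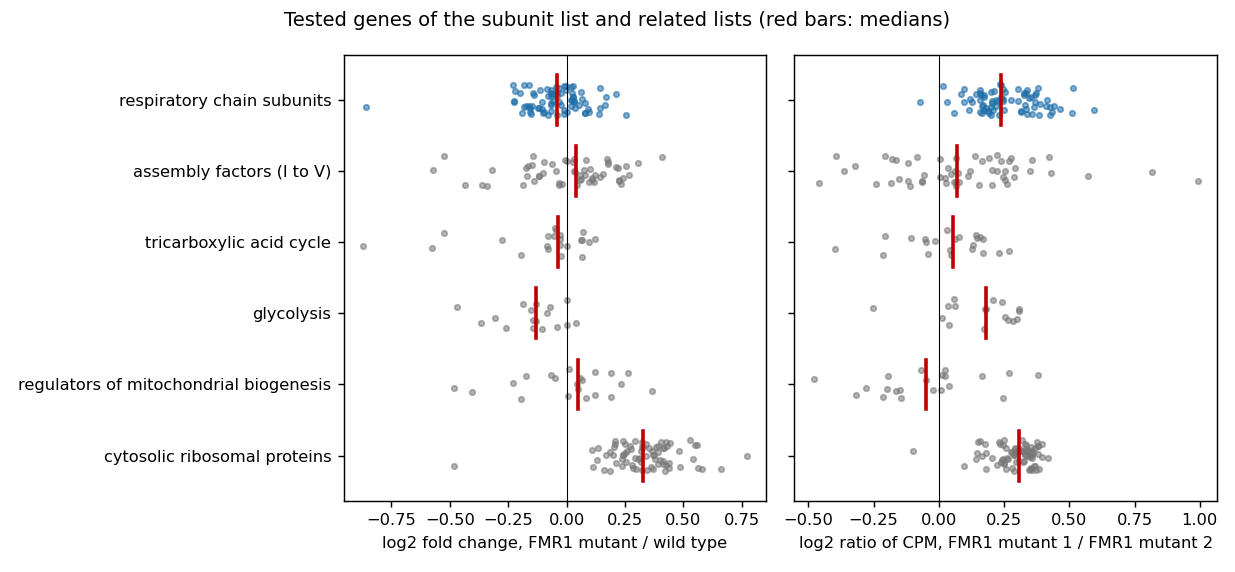
Tested genes of the respiratory chain subunits and of 5 related lists (rows), with the log2 fold change of FMR1 mutant over wild type on the left and the log2 ratio of CPM in FMR1 mutant replicate 1 over FMR1 mutant replicate 2 on the right, each point a gene and each red bar a median. On the left the subunits centre at -0.04 and the ribosomal proteins at 0.33, and on the right both lie to the right of zero, at 0.24 and 0.31.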

How the data were processed

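Per the labels' protocols, TRIzol-extracted and DNase-treated RNA went through poly(A) selection into directional libraries. Trimmomatic 0.38 and STAR 2.7.10a are the tools listed, per the submitters' processing notes. The sources used here name no counting tool, build or annotation, nor how strand was handled in counting. The authors deposited whole-number counts per gene for 35205 rows, not normalized. Of these rows, 17709 are LOC identifiers, and 327 of those took a symbol from RefSeq's gene table (assembly calJac240_pri) by Gene ID.

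Counts were fitted in R 4.3.3 with edgeR 4.0.16 on all genes passing filterByExpr at a minimum count of 10 (16956 genes), with TMM scaling and the quasi-likelihood test (robust = TRUE), group as the only term and p-values adjusted by Benjamini and Hochberg's method across those genes. Residual degrees of freedom were 2, and the prior ones had a median of 31.6. Every adjusted p given without another tool's name is from this test. The SE is the log2 fold change divided by the square root of F. CPM is not divided by gene length, so levels are compared within a gene only. The script was tested on simulated data with 200 changed genes. Alternatives were RLE, upper quartile and total-count scaling, DESeq2 1.42.0 on all rows, limma-voom (limma 3.58.1), robust = FALSE, dropping the low-count filter, requiring a mean of 1 CPM, blocking on the replicate number, each library left out (on the same genes), and an adjusted p of 0.1.

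The subunit list, the other gene lists and the tests were chosen with earlier results of these data known. Named genes were FMR1, any subunit past the threshold, per complex the 4 with the smallest unadjusted p and the 2 with the highest CPM, all of complex II, the paralog families, and per pathway list those past the threshold (up to 4) or the 2 with the smallest unadjusted p. Others are named as examples of their role and were chosen after their values were seen. Replicate libraries were not duplicates, since a chi-square test of their counts gave 6.90 (mutant pair) and 7.28 (wild-type pair) per degree of freedom, beyond sampling noise. No genome or protein sequence was used here. One-gene results for some items, including a subunit left out of the plot of fold changes, are not reported here.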

Additional observations from a re-analysis of the deposited data

How the results depend on the processing

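No subunit passed under any alternative: the count over the 61 genes found by symbol was 0 in each of them, and stayed 0 with the 15 genes named by Gene ID, an alternative chosen after seeing the data. Over all genes the count of 378 became 244 with DESeq2, 633 without a low-count filter and 624 at an adjusted p of 0.1, and 163 to 562 with 1 library left out (163 without mutant replicate 1 and 220 without mutant replicate 2). Over the pathway lists the count of 13 became 31 without the filter, 23 with the replicate block and 32 at an adjusted p of 0.1, and 1 to 30 with 1 library left out. The replicate numbers were not shown to pair the libraries (the correlation of same-numbered deviations was 0.031), and the block raised the count over all genes to 493. With 1 library left out, the lone library of a group is assumed to vary like the other group's. The median log2 fold change then ran from -0.15 to 0.080 for the 61 genes. By complex, also over genes found by symbol only, it ran from -0.15 to 0.096 for complex I and -0.16 to 0.043 for complex II. It ran from -0.12 to 0.18 for complex III (3 genes) and -0.14 to 0.076 for complex V. For complex IV it ran from -0.23 to 0.19, over 4 genes that include the rarely counted COX6B2 and NDUFA4L2. With 1 library left out, 54 of the 76 tested subunits had values of both signs, and none passed. ATP5F1B was 0.0010 with RLE, 0.0031 with upper quartile and 0.00093 with DESeq2. With 1 library left out, ATP5F1B ran from -0.061 to 0.057, ATP5F1A from -0.078 to 0.12, ATP5MC1 from -0.36 to 0.028, COX4I1 from -0.21 to 0.12, COX6B1 from -0.31 to 0.20, COX7B from -0.22 to 0.0070, COX8A from -0.15 to 0.28, NDUFA4 from -0.21 to 0.23, NDUFA4L2 from -0.43 to 0.92, NDUFB8 from -0.12 to 0.066, SDHA from -0.18 to 0.048, SDHB from -0.13 to 0.038, SDHD from -0.021 to 0.078, UQCR11 from -0.27 to 0.11, UQCRC1 from -0.061 to 0.11, UQCRH from -0.089 to 0.12, UQCRQ from -0.083 to 0.26, NDUFV2 from -0.047 to 0.31, CYC1 from -0.12 to 0.18, UQCRFS1 from -0.091 to 0.13, ATP5F1C from -0.056 to 0.22 and COX7A2L from -0.15 to 0.061. The cause of these moves was not tested. The SE of 0.11 to 0.17 for the complex I, II, III and V genes limits what could be seen.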
